A study of Mus musculus with 2 samples.

Results

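The cells described here are the primary granule-high cells of 2 single-cell RNA libraries from mouse cochlea. They are barcodes with at least 200 genes and at most 10% mitochondrial UMIs (unique molecular identifiers, each standing for a captured RNA molecule) that held at least 20 UMIs of Elane, Prtn3, Mpo and Ctsg together. Barcodes with 5 or more UMIs of C1qa, C1qb and C1qc, or with 3 or more of Cd79a and Cd79b, were left out. In all, 154 of 6662 filtered barcodes met the rule (6803 barcodes were deposited), 91 in the library from the implanted ear and 63 in the library from the ear without an implant. The study placed an electrode array in the cochlea of C57BL/6J/B6 mice of genotype CX3CR1+/GFP Thy1+/YFP, males and females pooled, and took the ears 33 days later, per the series text. Cochlear cells were enriched for Cd11b with magnetic beads and captured on the 10x Genomics platform. Each condition is a single library of pooled animals whose number and age the labels do not give, and the label of the implanted library does not say whether its array released dexamethasone, which the series title mentions for some arrays. Both libraries therefore share genotype, strain and enrichment. The implant cannot be told apart from any other difference between the 2 libraries, and the spread between animals cannot be estimated.

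Neutrophils are built in bone marrow in stages that are marked by their granules. The promyelocyte fills primary (azurophil) granules with the serine proteases neutrophil elastase (Elane), proteinase 3 (Prtn3) and cathepsin G (Ctsg) and with myeloperoxidase (Mpo), which makes hypochlorous acid. The myelocyte and metamyelocyte that follow switch these genes off and make secondary granule proteins such as cathelicidin (Camp), neutrophilic granule protein (Ngp) and lactoferrin (Ltf). Tertiary granule proteins such as the gelatinase Mmp9 come last, and cell division ends at the myelocyte stage.

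Elane and Prtn3 are neighbours on chromosome 10, and their levels moved together from cell to cell, so the sequence before each gene is printed with that of Ctsg, which lies on another chromosome. Each line is 150 bases, 5′ to 3′ on the gene's strand, from RefSeq's promoter of mouse build GRCm38.p6, stopping before any exon annotated by GENCODE. The windows end 65 bases before the RefSeq start for Elane, 53 bases before it for Prtn3, where they lie within the span of a longer transcript of that gene, and directly at the start for Ctsg. Capitals mark matches on either strand to GAGGAA, a core read by the factor PU.1, or AACNG, a core read by Myb.
Elane (chr10:79886097-79886246, plus strand): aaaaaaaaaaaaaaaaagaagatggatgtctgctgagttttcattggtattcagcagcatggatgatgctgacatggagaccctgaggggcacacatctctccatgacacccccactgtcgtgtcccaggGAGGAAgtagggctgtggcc
Prtn3 (chr10:79879464-79879613, plus strand): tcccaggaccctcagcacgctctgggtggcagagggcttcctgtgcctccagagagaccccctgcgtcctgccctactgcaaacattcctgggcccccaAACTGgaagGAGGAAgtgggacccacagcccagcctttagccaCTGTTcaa
Ctsg (chr14:56102575-56102724, minus strand): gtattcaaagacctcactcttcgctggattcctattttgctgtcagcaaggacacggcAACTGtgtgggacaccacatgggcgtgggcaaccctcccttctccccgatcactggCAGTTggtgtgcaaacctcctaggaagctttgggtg
The Elane and Prtn3 windows each held 1 GAGGAA, and the Prtn3 and Ctsg windows each held 2 matches to AACNG. None of the 3 held TTNCNNAA, a pattern read by C/EBP factors. Over 32851 windows of the same length, each directly before a RefSeq gene start, 14.5% held GAGGAA, 55.1% held AACNG and 22.7% held TTNCNNAA, so these letters are common and a match is only a description. In the GENCODE annotation of GRCm38, Elane begins 3072 bases after the end of Prtn3. Cfd, which begins 2637 bases after the end of Elane, had 1 UMI in the primary granule-high cells of each library, so the high level stopped at Elane on that side. Prss57 (neutrophil serine protease 4), 83514 bases before Prtn3, stood at 178 CPM (counts scaled to a common library total) in the implanted library and 200 in the other, against 23.0 and 22.2 in the Camp/Ngp/Ltf-high cells defined next.

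The cells are compared throughout with Camp/Ngp/Ltf-high cells, the barcodes with at least 100 UMIs of Camp, Ngp and Ltf together that did not meet the rule. There were 1082 of these in the implanted library and 1248 in the non-implanted library, 34.4% and 35.5% of the filtered barcodes. The primary granule-high cells held 1492204 and 1163449 UMIs in all, with a median of 15367 UMIs and 3617 genes per cell in the implanted library and 15331 UMIs and 3667 genes in the other. The Camp/Ngp/Ltf-high cells were shallower, with medians of 6833 and 7338 UMIs. None of the 6 barcodes that occur in both libraries was a primary granule-high cell. With 1 library per condition no test between conditions exists. The intervals given are 95% intervals for counting error only, exact except for those of differences of shares, and cells of a library are not replicates.

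All 5 genes taken as promyelocyte markers were detected, but most of these cells were not promyelocytes in the narrow sense of primary without secondary granule transcripts. Of the 154 cells, 134 also held at least 100 UMIs of Camp, Ngp and Ltf. The 20 others were of 3 kinds. In the first, 9 implanted and 5 non-implanted cells had primary granule transcripts and neither monocyte nor basophil and mast cell markers past the bound used (20 UMIs). That bound was set after seeing the cells. Among all 154 cells, 3 implanted cells below it held 10 to 19 monocyte-marker UMIs, and 1 non-implanted cell held as many basophil and mast cell UMIs. Next, 4 cells carried monocyte markers (F13a1, a transglutaminase of monocytes, was at 36 and 18 UMIs in the implanted pair and at 43 and 53 in the non-implanted pair), and 1 more non-implanted cell with 27 F13a1 UMIs and 1830 UMIs of Camp, Ngp and Ltf was among the barcodes with the highest doublet scores. Last, 2 implanted cells carried basophil and mast cell markers: the basophil protease Prss34 was at 152 and 568 UMIs, Mcpt8 at 13 and 117 and the carboxypeptidase Cpa3 at 28 and 52. Those 2 cells met the rule through Ctsg, at 59 and 50 UMIs, with Elane at 0 in both. The cells are therefore called by their rule, primary granule-high.

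**Figure D1:**
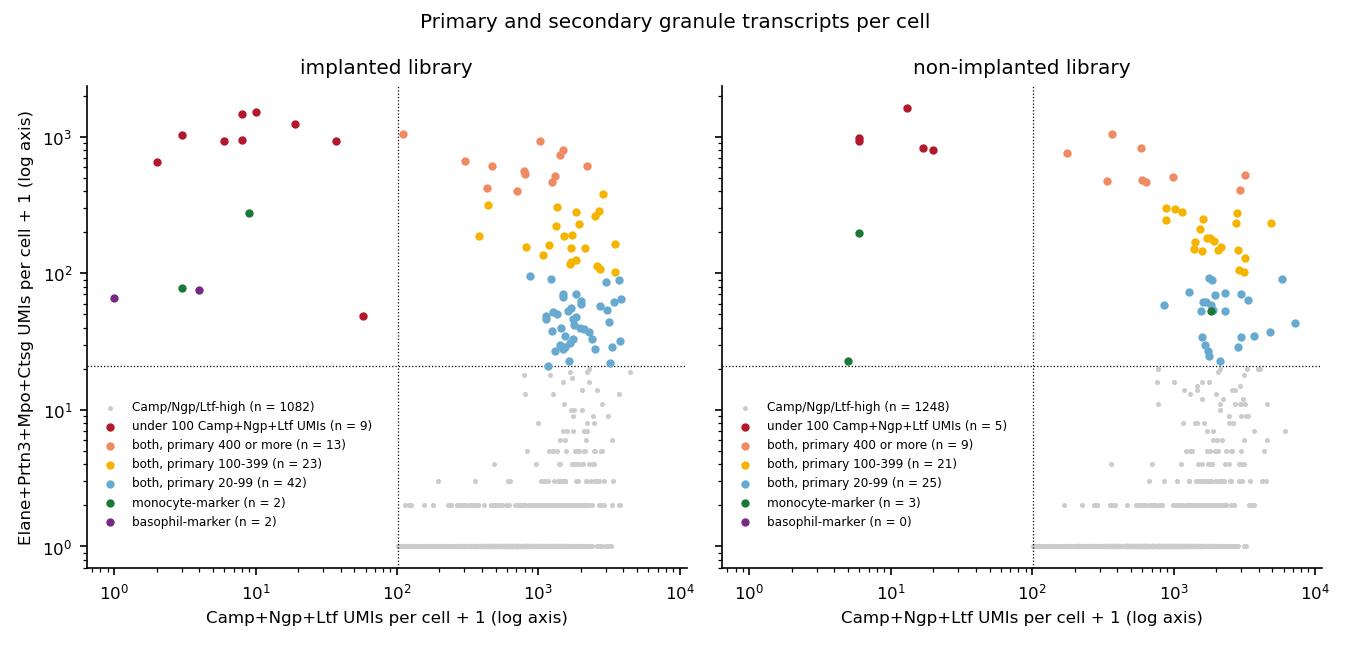
UMIs of Elane, Prtn3, Mpo and Ctsg (vertical, log axis) against UMIs of Camp, Ngp and Ltf (horizontal, log axis), each plus 1, per cell, for the implanted library (left) and the non-implanted library (right). Each point is a cell, coloured by the bands used in the text, with Camp/Ngp/Ltf-high cells in grey; dotted lines mark the 20 and 100 UMI bounds, and 134 of the 154 primary granule-high cells lie to the right of the vertical line.

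The 14 cells with primary and almost no secondary granule transcripts had, as a band, the highest summed level of granule protease RNA, although single cells of the other bands overlapped them. In the implanted library they held 1527, 1478, 1244, 1027, 940, 932, 932, 655 and 48 UMIs of Elane, Prtn3, Mpo and Ctsg together, and in the non-implanted library 1626, 976, 924, 823 and 794. The highest cells with at least 100 UMIs of Camp, Ngp and Ltf reached 1046 and 1040. The cell with 48 was also the shallowest, with 5031 UMIs in total and 57 of Camp, Ngp and Ltf, and stood apart from the other 13. Another of the implanted cells held 196 UMIs of Cd74, the invariant chain of MHC class II molecules. It also held 3 UMIs of F13a1, 4 of Ms4a6c and 5 of Ccr2, all monocyte markers. The other 13 cells held between 1 and 36 UMIs of Camp, Ngp and Ltf at 9837 to 20637 UMIs in total, far below the 100 that 134 cells reached in the same libraries. These 9 and 5 cells carried 32.7% and 29.8% of all Elane UMIs of the primary granule-high cells, and 58.4% and 51.5% of all Ctsg UMIs.

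Ordered in bands, the cells form a series of opposite gradients. The values that follow are a description, because the bands use the genes of the rule and also Camp, Ngp and Ltf. The first band was set by under 100 UMIs of Camp, Ngp and Ltf and the others by at least 100. The rise of that sum after the first band was therefore fixed by the split. The bands are the 14 cells above, then the cells with at least 100 UMIs of Camp, Ngp and Ltf and 400 or more (13 implanted, 9 non-implanted), 100 to under 400 (23 and 21) or 20 to 99 (42 and 25) primary granule UMIs, and last the Camp/Ngp/Ltf-high cells. Elane stood at 29000, 20200, 6150, 1420 and 20.5 CPM along this order in the implanted library, and at 38000, 17300, 6000, 1350 and 26.2 CPM in the non-implanted library. Ctsg went from 5060 to 1100, 136, 30.2 and 2.57 CPM in the implanted library and from 3700 to 802, 118, 30.0 and 2.77 CPM in the non-implanted library. Mpo went from 10600 to 5190, 696, 83.3 and 4.92 CPM in the implanted library, and from 10500 to 3760, 614, 156 and 2.14 CPM in the other. Prtn3 followed Elane, at 23700 CPM in the first band and 1300 in the fourth in the implanted library, and at 26500 and 1090 in the non-implanted library. From the first to the fourth band Mpo and Ctsg thus lost a larger part of their level than Elane and Prtn3 in both libraries.

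Genes that the rule did not use followed the same order. Ms4a3, a membrane protein of granulocyte and monocyte progenitors, stood at 2300, 1410, 682, 402 and 75.1 CPM in the implanted library. In the non-implanted library it stood at 2590, 1180, 648, 416 and 75.5 CPM. Its level fell less along the bands than those of the 4 genes of the rule. The bands were cut on those 4 genes and not on Ms4a3, so the falls cannot be compared. Cst7 (cystatin F, an inhibitor of the cathepsin that activates granule proteases) went from 443 to 219, 65.7, 17.2 and 0.783 CPM in the implanted library, and from 520 to 243, 83.6, 22.0 and 1.52 CPM in the other. Nkg7, a granule membrane protein best known from killer lymphocytes, went from 1540 to 1010, 333, 205 and 23.8 CPM in the implanted library. In the non-implanted library Nkg7 went from 1820 to 771, 369, 184 and 24 CPM. Serglycin (Srgn), the proteoglycan that packs granule proteases, stood at 8950 and 7330 CPM in the first band and at 649 and 634 CPM in the fourth, below the 897 and 833 CPM of the Camp/Ngp/Ltf-high cells.

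Secondary granule genes ran the other way, and not all at once. For Camp, Ngp and Ltf together, the step from the first band to the second was fixed by the 100 UMI bound. Camp was at 583 and 367 CPM in the first band and at 47300 and 42200 CPM in the second, close to its 51500 and 53900 CPM in the Camp/Ngp/Ltf-high cells. Ltf, at 62.2 and 76.5 CPM in the first band, was at 99.5 and 510 CPM in the second and at 2730 and 2780 CPM in the third, against 10300 CPM in the Camp/Ngp/Ltf-high cells of both libraries. Lcn2 (lipocalin 2, which binds bacterial iron carriers) ran from 148 to 925, 6140, 9220 and 13800 CPM in the implanted library, and from 168 to 2230, 6060, 9960 and 14900 CPM in the non-implanted library. Ly6g, the antigen used to sort mouse neutrophils, came later still and was at 0 in the first band of both libraries, at 4.98 and 12.4 CPM in the second and at 181 and 120 CPM in the fourth, against 657 and 696 CPM in the Camp/Ngp/Ltf-high cells. Fcnb (ficolin B, a lectin of granulocyte precursors) peaked in the middle, with 646 and 627 CPM in the first band, 1660 and 1750 CPM in the third and 453 and 449 CPM in the Camp/Ngp/Ltf-high cells. S100a8, a subunit of calprotectin, was already at 20200 and 28700 CPM in the first band and reached 149000 and 151000 CPM in the Camp/Ngp/Ltf-high cells.

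**Figure D2:**
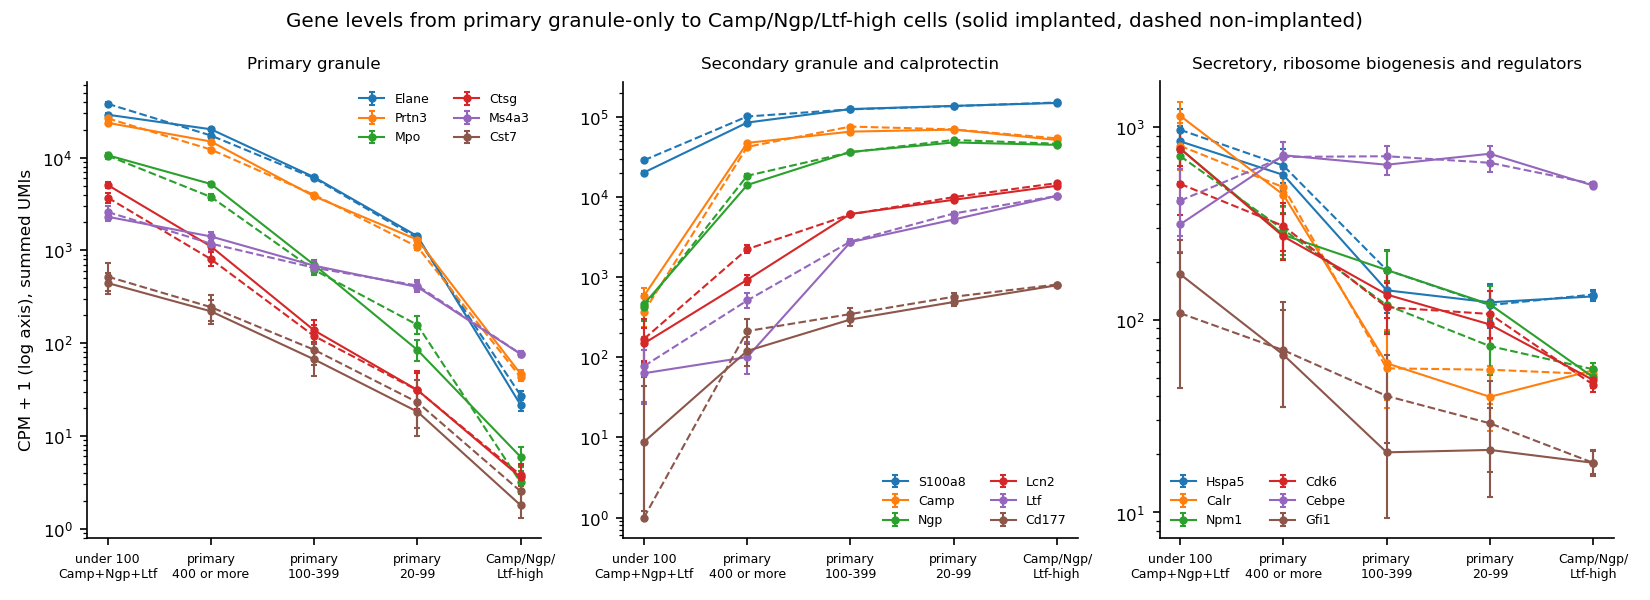
Level of 18 genes (CPM + 1 of summed UMIs, log axis) along the bands from primary granule-only cells to Camp/Ngp/Ltf-high cells, solid for the implanted and dashed for the non-implanted library; bars are exact 95% Poisson intervals. Elane runs from 29000 and 38000 CPM to 20.5 and 26.2 CPM, while Camp reaches 47300 and 42200 CPM already in the second band and Ltf rises later. The bands were set by the UMIs of Elane, Prtn3, Mpo and Ctsg and of Camp, Ngp and Ltf.

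Among regulators, Myb, which keeps progenitors dividing, was at 350 and 337 CPM in the first band and at 79.6 and 106 CPM in the second. Gfi1, a repressor needed for granulocyte maturation, was at 171 and 107 CPM in the first band and 17.1 CPM in the Camp/Ngp/Ltf-high cells of both libraries. Cebpe, the factor needed to make secondary granules, was lower in the first band, at 311 and 413 CPM, than in the second, at 711 and 697 CPM. Cdk6, a cyclin-dependent kinase of dividing progenitors, was at 770 and 505 CPM in the first band and at 93.4 and 106 CPM in the fourth. The share of UMIs from ribosomal protein genes followed the same path, at 7.15% and 7.53% in the first band, 4.63% and 4.58% in the second, 2.82% and 2.74% in the third, 2.08% and 2.16% in the fourth and 0.861% and 0.919% in the Camp/Ngp/Ltf-high cells. The median depth of the 4 bands lay between 11869 and 16734 UMIs in either library.

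The 20 cells with fewer than 100 UMIs of Camp, Ngp and Ltf, against the 134 with more, had 417 of 5308 genes (7.86%) at least 2-fold higher and 86 (1.62%) at least 2-fold lower in both libraries. These ratios were of CPM + 20, whereas the comparisons further below use CPM + 5. The 6 cells with monocyte or basophil markers carried much of the upper end of that comparison. S100a10, a calcium-binding protein partner of annexin, was at 15.6 and 15.3 CPM in the first band, but at 2260 and 1250 CPM in the monocyte-marker cells (all 5, the cell with the high doublet score included) and 684 CPM in the basophil-marker cells. Lgals1 (galectin 1) was at 124 and 122 CPM in the first band and at 1840, 1030 and 1230 CPM in those same cells. At the lower end stood granule and surface genes of later stages, such as Cd177, a neutrophil surface protein, with 7.78 and 0 CPM in the first band, 119 and 211 CPM in the second and 790 and 807 CPM in the Camp/Ngp/Ltf-high cells.

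From cell to cell, the primary granule genes were tied to each other. Each gene was taken as its share of a cell's UMIs. Over the 91 implanted cells, Spearman's rho between these shares was 0.89 for Elane and Prtn3, 0.78 for Elane and Mpo and 0.61 for Elane and Ctsg. Elane against Camp, Ngp and Ltf together gave -0.51, and Mpo against the same sum gave -0.69. These cells come from 1 library and were picked on counts of these genes, so the coefficients describe the set only.

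In every band the median share of S phase transcripts was above that of the Camp/Ngp/Ltf-high cells. The S phase list took a median of 0.356%, 0.319%, 0.348% and 0.337% of a cell's UMIs along the 4 bands in the implanted library and 0.562%, 0.482%, 0.253% and 0.224% in the non-implanted library, against 0.0228% and 0.02% in the Camp/Ngp/Ltf-high cells. The G2 and M phase list took 0.449%, 0.519%, 0.551% and 0.446% in the implanted library and 0.317%, 0.499%, 0.565% and 0.687% in the other, against 0.0779% and 0.0876%. In UMIs summed over cells this list took 0.427%, 0.554%, 0.625% and 0.564% in the implanted library, against 0.403%. In the non-implanted library it took 0.309%, 0.711%, 0.66% and 0.655%, against 0.39%, so the first band there lay below the Camp/Ngp/Ltf-high cells. The medians did not run one way along the bands in the implanted library, whereas in the non-implanted library those of the S phase list ran down and those of the G2 and M phase list ran up. From cell to cell, Spearman's rho between the S phase share and the Mpo share of UMIs was 0.22 over the 91 implanted and 0.47 over the 63 non-implanted cells. Between the G2 and M phase share and the Elane share it was -0.01 and -0.28. Mki67, the standard proliferation marker, stood at 163, 229, 404 and 358 CPM along the bands in the implanted library, against 289 in its Camp/Ngp/Ltf-high cells. In the non-implanted library it stood at 61.2, 392, 290 and 382 CPM, against 252. In summed UMIs the first band was thus below the Camp/Ngp/Ltf-high level in both libraries. By detection it was not lower, as only 5 of its 14 cells had no Mki67 UMI. At full depth, only 32.7% and 33.9% of the Camp/Ngp/Ltf-high cells, which were shallower, had any. With every cell thinned to 2000 UMIs, Mki67 was detected in 47.3% of implanted-ear and 44.4% of non-implanted-ear primary granule-high cells. It was detected in 21.6% and 19.7% of the Camp/Ngp/Ltf-high cells at the same depth, and in 11.4% and 15.0% of B-lineage cells. Unthinned, the shares were 92.3% and 95.2% against 32.7% and 33.9%. The Camp/Ngp/Ltf-high cells were not uniform: 367 of 1082 and 443 of 1248 held 10 or more UMIs of the G2 and M phase list.

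**Figure D3:**
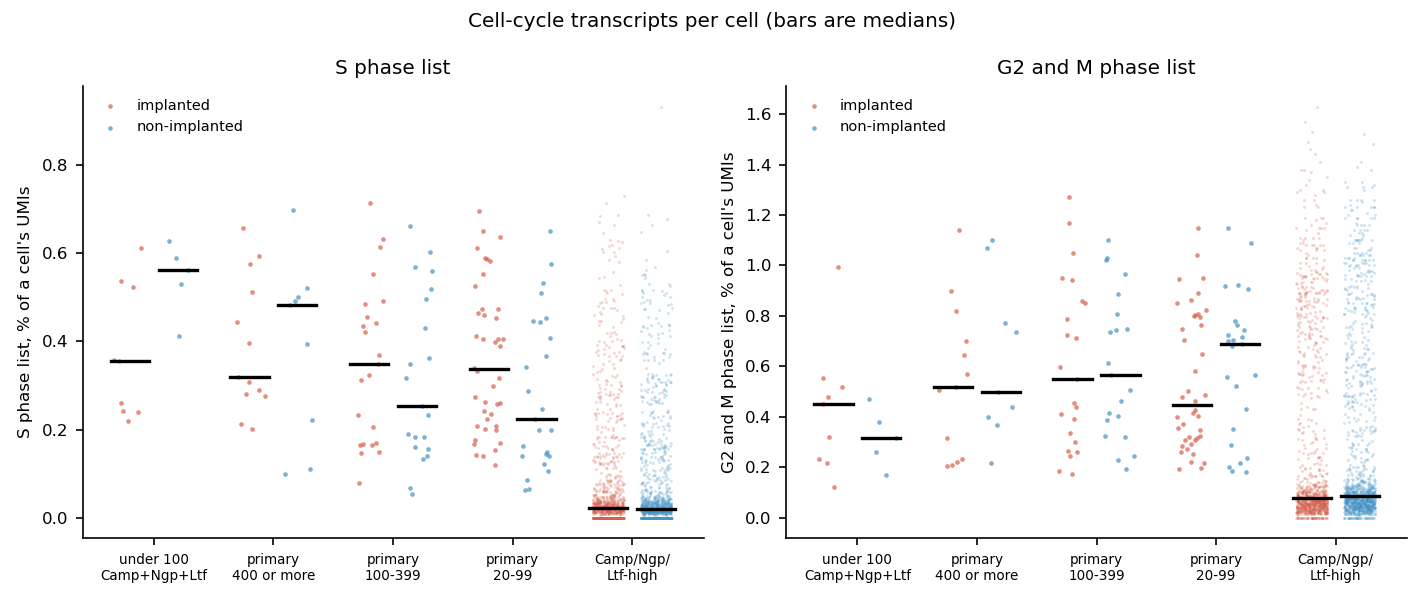
Share of a cell's UMIs (percent) from the S phase list (left) and the G2 and M phase list (right) in each band, implanted in red and non-implanted in blue; points are cells and bars are medians. The S phase medians of the 4 bands lie between 0.224% and 0.562%, above the 0.0228% and 0.02% of the Camp/Ngp/Ltf-high cells, whose upper tails overlap them.

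Against the Camp/Ngp/Ltf-high cells as a whole, the primary granule-high cells were richer in transcripts for DNA synthesis, for making ribosomes and for protein entry into the secretory pathway, and poorer in those of late granules. Levels were compared as log2 ratios of CPM + 5, and a gene was counted when the ratio passed 2-fold the same way in both libraries. Of 8320 genes with enough UMIs, 691 (8.31%) were higher and 241 (2.9%) lower. That split depends on scaling: with trimmed-mean (TMM) factors, which move the median of all genes by -0.405 and -0.413 on the log2 scale, 235 genes were higher and 689 lower. The median over all genes was 0.214 with the implant and 0.229 without it, and each list is read against it. Both sets of cells were picked on granule genes, so nothing here is a test.

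The granule genes outside the rule came first. Of 15 primary granule and processing genes measured, 5 were higher and none lower, with medians of 1.00 and 0.73. Cst7 was at 100.5 and 103 CPM against 0.783 and 1.52, log2 ratios of 4.19 and 4.05. Nkg7 was at 479 and 410 CPM against 23.8 and 24, and Ms4a3 at 792 and 703 CPM against 75.1 and 75.5. Lysozyme 2 (Lyz2), found in several granule types, ran against the list at 5780 and 6090 CPM against 10000 and 11200. Bpi was at 0 in all 154 cells.

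Of 32 S phase genes measured, 27 were higher and none lower, with medians of 1.42 and 1.29. The replication helicase subunit Mcm5 was at 147 and 114 CPM against 37.9 and 35.9, and Dut, which keeps uracil out of DNA, at 342 and 218 CPM against 69.7 and 62.9. Of 38 G2 and M phase genes only 2 passed 2-fold, with medians of 0.59 and 0.81. The mitotic kinase Aurkb, one of them, was at 71.7 and 73.9 CPM against 32.2 and 32.1. When only Camp/Ngp/Ltf-high cells with 10 or more G2 and M phase UMIs were kept, 5 S phase genes still passed, with medians of 0.729 and 0.689, and the G2 and M phase medians were -0.201 and 0.0677. Under TMM scaling 12 S phase genes were higher, with medians of 0.968 and 0.8.

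Of 32 genes for chaperones and entry into the endoplasmic reticulum, 15 were higher and none lower, with medians of 1.07 and 1.03. The translocon-associated subunit Ssr4 was at 393 and 370 CPM against 57.3 and 60.8, and Sdf2l1, a chaperone partner in the endoplasmic reticulum, at 96.5 and 79.1 CPM against 10.1 and 8.04. The list of 33 genes summed to 15700, 9120, 3790, 3130 and 2310 CPM along the bands in the implanted library, and to 16500, 8830, 3980, 3170 and 2330 CPM in the other, and so ran down with the primary granule genes. Calr (calreticulin) was at 1140 and 796 CPM in the first band and 58.4 and 54.9 CPM in the third, where it was close to the 53.6 and 51.2 CPM of the Camp/Ngp/Ltf-high cells. Hspa5 (the chaperone BiP) was at 840 and 964 CPM in the first band and 141 and 180 CPM in the third, and by the fourth, at 122 and 118 CPM, it was close to the 131 and 134 CPM of the Camp/Ngp/Ltf-high cells. Of 22 ribosome biogenesis genes, 12 were higher and 1 lower, with medians of 1.12 and 1.03. Npm1 (nucleophosmin) was at 242 and 175 CPM against 49.3 and 54.3. Of 19 pentose phosphate and nucleotide synthesis genes, 7 were higher and none lower, among them thymidylate synthase (Tyms) at 144 and 119 CPM against 46.0 and 45.6. Of 9 heme synthesis genes 2 were higher, among them Alas1, the first enzyme of the heme pathway outside red cells, at 227 and 197 CPM against 81.1 and 93.1. The medians of the secretory, ribosome biogenesis and nucleotide lists stayed above 0 under TMM scaling, with 9, 5 and 2 genes higher.

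The lists of later stages lay below. Of 20 secondary granule genes, 5 were lower and none higher, with medians of -0.45 and -0.46, although Camp itself was at 56700 and 61600 CPM against 51500 and 53900. Of 18 tertiary granule and mature neutrophil genes, 12 were lower and none higher, with medians of -1.48 and -1.44. Mmp9 was at 70.4 and 55.0 CPM against 711 in both libraries, and Retnlg (resistin-like gamma) at 415 and 303 CPM against 3520 and 3410. Of 19 interferon response genes, 4 were lower and none higher. Of 8 NADPH oxidase genes none passed 2-fold either way, and of 14 granulocyte transcription factors only Cebpa did, at 24.8 and 26.6 CPM against 4.81 and 6.79. The medians of those last 2 lists and of glycolysis, between 0.03 and 0.30, turned negative under TMM scaling. Other genes with the most extreme ratios were Gstm1 (a glutathione transferase) at 168 and 144 CPM against 9.62 and 9.91, Mt1 (metallothionein 1) at 108 and 153 CPM against 9.28 and 11.2, and Rps2 at 986 and 1340 CPM against 121 and 206.

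**Figure D4:**
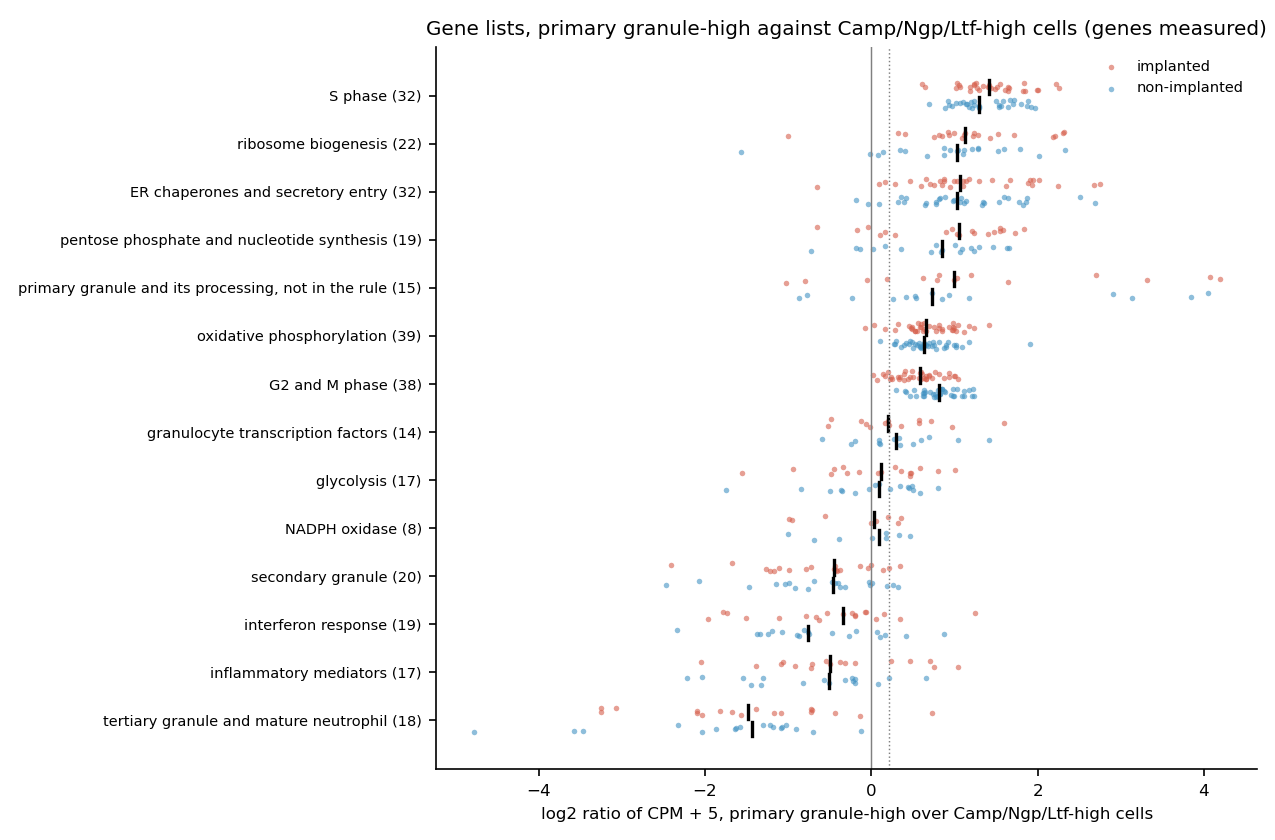
Log2 ratio of CPM + 5, primary granule-high over Camp/Ngp/Ltf-high cells, for each gene of 14 lists (points), implanted in red and non-implanted in blue, with list medians as black bars and the median of all genes dotted. The S phase list stands highest, at medians of 1.42 and 1.29, and the tertiary granule and mature neutrophil list lowest, at -1.48 and -1.44.

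Of the markers of other cell types, those of T and NK cells, fibroblasts, glia and neurons were at or near 0. Those of myeloid cells, erythroid cells and cochlear epithelium were not. The 8 T and NK cell markers summed to 1.34 and 1.72 CPM in the primary granule-high cells of the implanted and the other library, with 7 of the 8 at 0 in both. The 7 fibroblast markers summed to 1.34 and 4.3 CPM with 5 at 0, and the 7 glia and neuron markers to 0 and 0.86 CPM with 6 at 0. The 7 cochlear epithelium markers summed to 21.4 and 21.5 CPM, against 7.83 and 6.52 CPM in the Camp/Ngp/Ltf-high cells. The 9 erythroid markers summed to 87.1 and 121 CPM, against 90.0 and 620 CPM. The 6 monocyte markers summed to 796 and 1010 CPM against 540 and 606 CPM in the Camp/Ngp/Ltf-high cells, most of it Ly6c2 at 647 and 766 CPM. The 8 dendritic cell markers summed to 251 and 238 CPM against 89.8 and 103, and 1 barcode of each library held 69.5% and 84.3% of the Cd74 UMIs in that sum. The 8 macrophage markers summed to 103 and 79.9 CPM against 111 and 66.3. The 8 basophil and mast cell markers differed between the libraries, at 686 and 17.2 CPM in sum, and of 721 Prss34 UMIs in the implanted library 152 and 568 lay in the 2 cells named above. Irf8 and Itgam, which encodes the Cd11b protein used for the enrichment, had 0 UMIs in every barcode of both libraries, so the enrichment could not be checked by its own gene.

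The primary granule-high cells made up a larger share of the implanted library. They were 2.89% of its filtered barcodes (interval 2.33 to 3.54) and 1.79% of those of the non-implanted library (1.38 to 2.29), a difference of 1.10 points (0.372 to 1.85). Taken over primary granule-high plus Camp/Ngp/Ltf-high cells, the shares were 7.76% and 4.81%, a difference of 2.95 points (1.05 to 4.92), while the share of Camp/Ngp/Ltf-high cells differed by -1.17 points (-3.45 to 1.13). At a bound of 10 primary granule UMIs the difference was 0.754 points, and its interval of -0.0724 to 1.6 then included 0. At the bound of 20 used here, 3 cells of each library lay just inside, at 20 to 24 UMIs, and 9 and 11 barcodes just outside, at 15 to 19 UMIs. Those just inside had Ms4a3 at 255 and 310 CPM and those just outside at 312 and 345 CPM. Whether ears differ in this share beyond 2 libraries cannot be told.

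Within the primary granule-high cells the 2 libraries were close in most genes. Of 5633 genes measured, 218 (3.87%) were at least 1.5-fold higher and 145 (2.57%) at least 1.5-fold lower in the implanted library, and the median over all genes was 0.029 on the log2 scale. In the summed Camp/Ngp/Ltf-high cells, which are shallower per cell but hold more UMIs in all (8940636 and 11195688), 48 (0.854%) and 25 (0.445%) of 5619 of these genes passed the same fold. Of 15 primary granule genes outside the rule, 19 secondary granule genes, 31 secretory genes, 16 ribosome biogenesis genes and 14 transcription factors, none passed 1.5-fold either way with all cells, although 2 ribosome biogenesis genes did without the cells of highest doublet score. Of 31 S phase genes 1 was higher, Dut, at 342 against 218 CPM (ratio 1.57, interval 1.35 to 1.83). Of 36 G2 and M phase genes 1 was lower, Hmmr, a spindle protein, at 63.7 against 103 CPM.

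The cells were chosen on the sum of 4 genes, so the ratios of these genes between the libraries describe the chosen cells only. Elane stood at 7640 CPM with the implant and 7170 CPM without it, a ratio of 1.07 (1.04 to 1.10), and Prtn3 at 5810 and 5060 CPM, a ratio of 1.15. Mpo stood at 1880 and 1380 CPM (1.36, 1.28 to 1.45) and Ctsg at 746 and 404 CPM (1.85, 1.66 to 2.06). Without the monocyte- and basophil-marker cells Ctsg was at 661 and 389 CPM, and without the cells with the highest doublet scores at 794 and 415 CPM. Among the cells with at least 100 UMIs of Camp, Ngp and Ltf it was at 229 and 178 CPM. The first band, which carried 58.4% and 51.5% of the Ctsg UMIs, made up 9 of 91 implanted and 5 of 63 non-implanted cells, or 9.89% (4.62 to 17.9) and 7.94% (2.63 to 17.6).

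Among genes with no more than 25% of their UMIs from 1 barcode in the higher library, the highest ratio between the libraries belonged to Cxcl2, a chemokine that attracts neutrophils, and it rested on few cells. Genes with higher ratios, among them Prss34, Il6, Cpa3, Ccrl2, Mcpt8, Angpt1, Ifitm1 and Ern1, each drew between 40.9% and 88% of their implanted UMIs from 1 barcode. Cxcl2 stood at 148 CPM (129 to 169) with the implant and 38.7 CPM (28.2 to 51.8) without it, with any UMI in 18 and 10 cells and 10 or more UMIs in 5 and 2 cells. The ratio was 3.83 (2.77 to 5.40). Without the 4 implanted and 2 non-implanted cells with the highest doublet scores it stood at 52.5 and 39.8 CPM, a log2 ratio of 0.36 in place of 1.81. Without the monocyte- and basophil-marker cells it stood at 116 and 40.6 CPM, and without both sets of cells at 13.5 and 41.1 CPM, a log2 ratio of -1.32. The direction of the Cxcl2 difference thus turned when these cells were left out, at 18 against 45 UMIs. Of the 45 non-implanted UMIs, 17 (37.8%) lay in 1 barcode, so the turned direction rests on few cells too. In the Camp/Ngp/Ltf-high cells Cxcl2 was at 106 and 105 CPM. The 6 cells with the highest doublet scores also decided 2 lists. Of 15 inflammatory mediators measured, 7 were higher and none lower with all cells, at a median of 0.46, against 1 higher and 3 lower without them, at a median of 0.17. Without the monocyte- and basophil-marker cells as well, none of 11 was higher and 4 were lower, at a median of -0.344. Of 13 tertiary granule and mature neutrophil genes, 5 were higher and none lower with all cells. Without those cells 1 of 12 was higher and 1 lower. The cytokine Il1b went from 105 against 67 CPM to 26.6 against 69.0 CPM, and the inflammasome sensor Nlrp3 from 69.7 against 25.8 CPM to 29.5 against 25.7 CPM. For Il1b, 30 of the 78 non-implanted UMIs (38.5%) lay in 1 barcode. The collagenase Mmp8 went from 72.4 against 21.5 CPM to 39.6 against 22.1 CPM. Without the monocyte- and basophil-marker cells as well, Nlrp3 stood at 9.0 against 19.2 CPM, a log2 ratio of -0.79 in place of 1.28. Whether these 6 barcodes hold more than 1 cell was not tested beyond their score.

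Other genes with high ratios were spread over more cells. Phrf1, a ubiquitin ligase, was at 41.5 and 12.9 CPM in 45 and 13 cells (26.8 and 25.4 CPM in the Camp/Ngp/Ltf-high cells), and at 41.0 and 12.4 CPM without the cells of highest doublet score. Rrp15, a ribosome biogenesis factor that was not in the list of such genes used above, was at 32.8 and 10.3 CPM. Sf3a1, a spliceosome subunit, was at 30.8 and 10.3 CPM. The histone gene Hist1h2ap was at 145 and 55.9 CPM against 77.6 and 28.3 CPM in the Camp/Ngp/Ltf-high cells. The cytokine gene Il15 was at 73.7 and 30.9 CPM against 89 and 58.2 CPM, the cyclin-dependent kinase partner Cables1 at 75.1 and 30.9 CPM against 43.8 and 23.8 CPM, and Apoe, a lipid carrier made by macrophages, at 79.1 and 36.1 CPM against 76.7 and 42.2 CPM. These 4 genes were thus higher with the implant in the Camp/Ngp/Ltf-high cells too. For Apoe, 1 barcode of each library held 22.0% and 26.2% of the UMIs. Apoe was at 63.3 and 27.4 CPM without the cells of highest doublet score. Without the monocyte- and basophil-marker cells it was at 61.3 and 37.0 CPM, and without both sets at 43.5 and 27.4 CPM. Slc7a11, the cystine importer, was at 93.2 and 37.8 CPM with all cells and at 58.3 and 36.3 CPM without the cells of highest doublet score, against 231.5 and 177.9 CPM in the Camp/Ngp/Ltf-high cells.

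Among the lowest ratios, the adaptor gene Cass4 was at 20.8 CPM with the implant and 55.0 CPM without it, and Dnajc6, a clathrin uncoating cofactor, at 29.5 and 67 CPM. Dnajc6 was lower with the implant in the Camp/Ngp/Ltf-high cells too, at 3.69 against 11 CPM. Ifngr2, a subunit of the interferon gamma receptor, was at 22.1 and 48.1 CPM, Bcl6, a transcriptional repressor, at 20.1 and 42.1 CPM, and the spectrin Sptan1 at 41.5 and 82.5 CPM. Cx3cr1, the chemokine receptor whose locus carries GFP in these mice, was at 12.1 and 28.4 CPM. Of 14 monocyte lineage genes, 6 were lower and none higher, with a median of -0.55. The non-implanted library held 3 of the 5 monocyte-marker cells among fewer cells, and without the monocyte- and basophil-marker cells 6 genes of the list were measured, of which 1 was lower, with a median of -0.187.

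**Figure D5:**
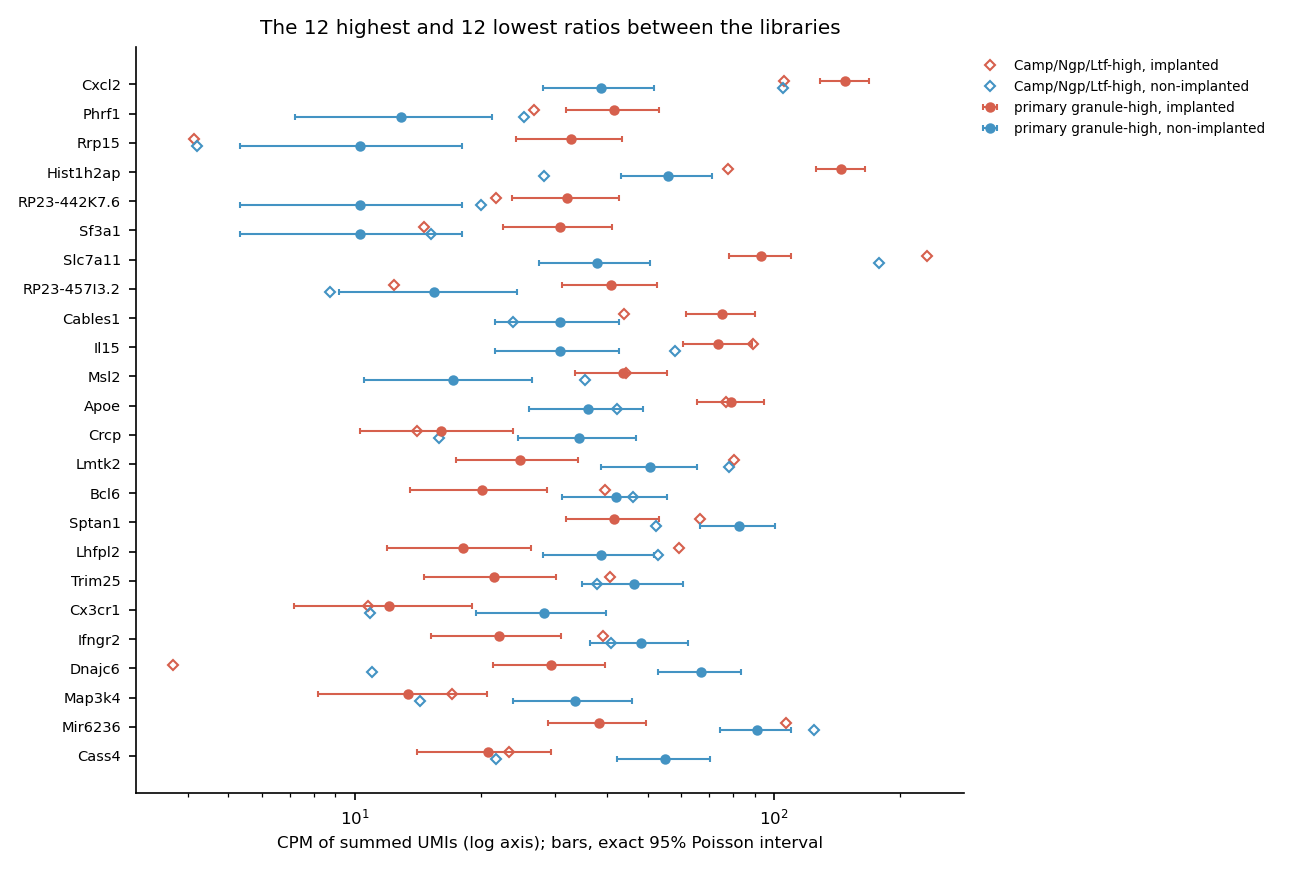
CPM of summed UMIs (log axis) in the primary granule-high cells for the 12 genes with the highest and the 12 with the lowest ratio between libraries (filled circles with exact 95% Poisson intervals, implanted in red and non-implanted in blue), with the Camp/Ngp/Ltf-high cells as open diamonds. Cxcl2, at 148 against 38.7 CPM, has the highest ratio of the genes shown, and its diamonds lie together at 106 and 105 CPM.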

How the data were processed

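The 2 matrices hold UMI counts per gene and barcode, deposited by the authors; the matrix header gives software version 3.0.1. Builds mm10 and GRCm38 and the tools Seurat and Cell Ranger are listed in the submitters' processing notes. No cell annotation was used. The counts were summed per library and set of cells over 48587 gene names and scaled to CPM; spike-in and transgene rows, with 11 UMIs per library, were left out. The deposited depth was 19593003 UMIs over 3231 barcodes in the implanted library and 21577033 over 3572 in the non-implanted library. A gene entered a comparison with at least 50 UMIs. With 1 library per condition no test was run: intervals are exact Poisson for levels, Clopper-Pearson for shares, Newcombe for differences of shares and exact conditional for ratios. Doublets were scored with Scrublet (scanpy 1.11.5) and kept, with their removal (0.8% per 1000 barcodes) as an alternative. B-lineage cells, used for detection only, had median depths of 3621 and 3688 UMIs. Named genes are the 12 highest and 12 lowest ratios, without genes whose UMIs come over 25% from 1 barcode in the higher library and without genes named Gm with digits, ending in Rik, mitochondrial genes or ribosomal pseudogenes (2 clone-named models remained among the highest), plus markers and examples of the lists; Il1b, Nlrp3 and Mmp8 were added after their values were seen. The rule for the cells and the gene lists were chosen with earlier results of these data known. Scripts used scipy 1.17.1, pandas 2.3.3 and numpy 2.4.6 under Python 3.11.15, and edgeR 4.0.16 (TMM factors only) in R 4.3.3, and were tested on simulated data. Promoter windows come from RefSeq (GRCm38.p6) and gene coordinates from GENCODE on GRCm38. The labels' extraction protocol describes other tissue and ages than the series text, which was followed.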

Additional observations from a re-analysis of the deposited data

How the results depend on the processing

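No paired analysis was possible because each condition is 1 library, and for the same reason no replicate could be left out. The share of primary granule-high cells stayed higher in the implanted library under every bound, filter and denominator tried: the difference was 0.754 points at 10 UMIs, 0.778 at 40 UMIs and 2.95 points over primary granule-high plus Camp/Ngp/Ltf-high cells. The counts past 1.5-fold between libraries (218 higher, 145 lower) were 79 and 44 with a pseudocount of 20 CPM, 470 and 321 at 20 UMIs, 95 and 60 at 100 UMIs, 853 and 677 without a filter, and 136 and 92 in the cells under 100 Camp, Ngp and Ltf UMIs. The counts past 2-fold against Camp/Ngp/Ltf-high cells (691 and 241) were 279 and 110 with a pseudocount of 20 CPM, 1260 and 385 with every cell weighted alike, 235 and 689 with TMM factors, and 1855 and 534 in the cells under 100 Camp, Ngp and Ltf UMIs. They were 300 and 64 against Camp/Ngp/Ltf-high cells of at least 10000 UMIs, 291 and 47 against those with 10 or more G2 and M phase UMIs, and 446 higher with only the cells of 100 or more Camp, Ngp and Ltf UMIs; these last 3 were chosen after seeing the data. Mki67 was detected in 36.3% and 25.4% at 1000 UMIs and in 68.1% and 76.2% at 5000. Of 83 list medians 33 changed sign under at least 1 alternative, among them, between libraries, the S phase list (-0.29, cells under 100 Camp, Ngp and Ltf UMIs), the G2 and M phase list (0.06) and the mature neutrophil marker list (-0.08, both with a rule of 0.2% primary granule UMIs), and, against Camp/Ngp/Ltf-high cells, the implanted G2 and M phase list (-0.08 and -0.20 against deeper or dividing cells) and the non-implanted monocyte marker list (-0.23 without monocyte- and basophil-marker cells). Of 72 ratios of genes named by rule only that of Cxcl2 changed sign (log2 1.81, and -1.32 without both the highest doublet scores and the monocyte- and basophil-marker cells, a pair of choices made after seeing the data). Il1b, named outside the rule, did too (0.60 with all cells, -1.23 without the highest doublet scores and -1.17 without both). So did Nlrp3, also named outside the rule (1.28 with all cells, 0.17 without the highest doublet scores and -0.79 without both). Of the non-implanted UMIs with all cells, 1 barcode held 37.8% for Cxcl2, 38.5% for Il1b and 26.7% for Nlrp3. The causes were not tested. Depth limits the levels of genes with under 50 UMIs and of the smallest bands, of 5 and 9 cells.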
